A study of Mus musculus with 12 samples.

Results

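The genes described here are the 35 genes of glucose uptake, glycolysis, lactate export, pyruvate entry into the mitochondrion and the pentose phosphate pathway, together with the regulator Hif1a. They were chosen by symbol for their place in these pathways, and all 35 were found by Ensembl identifier among the 37991 identifiers of the count table. Of them, 34 passed the filter on low counts and were among the 13538 genes tested. The remaining member, Ldhb, had 0 to 11 counts per sample and was not tested.

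Glycolysis splits glucose, taken up through facilitative transporters of the GLUT family, into pyruvate and yields ATP without oxygen. Lactate dehydrogenase reduces pyruvate to lactate, which leaves the cell through monocarboxylate transporters, whereas pyruvate dehydrogenase, held in check by its kinases, passes pyruvate to the mitochondrion. The pentose phosphate pathway branches from glucose 6-phosphate and supplies NADPH and the ribose of nucleotides, and lymphocytes that leave the resting state are known for a rise in glucose use.

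RNA was sequenced from resting B cells of mouse spleen, before culture and after 3 h with anti-IgM, which crosslinks the BCR, and the cytokine IL-4. The cells came from C57B6 mice of 8 weeks whose labels read CD23-iCre (Cre-only) or CD23iCre/Runx1 ck/o (Runx1 c-k/o), with 3 replicates in each of the 4 groups and 12 samples in all. Both genotypes carried the Cre transgene, which is driven by Cd23 regulatory sequence and is first active in transitional B cells, and the floxed Runx1 allele of the c-k/o mice loses exon 4. Resting B cells were enriched by removal of other cells, so the 3-h samples differed from the resting ones both in the stimulus and in the time in culture, and these cannot be told apart without unstimulated cells cultured for 3 h. In bulk RNA, fewer cells of a type and less RNA per cell cannot be told apart either. The deposited values are read counts per gene, and levels are given here as normalized CPM, counts scaled to library size (CPM) after TMM normalization between libraries.

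Totals ranged from 14442251 to 23641552 counts per sample. The 35 genes held 0.287% to 0.370% of each resting total and 0.536% to 0.647% of each 3-h total. A pair of libraries stood apart from their replicates. On an axis that runs from 0 at the mean of resting Cre-only samples to 1 at the mean of 3-h Cre-only samples, drawn over all tested genes but the members, Runx1 c-k/o rest replicate 2 lay at 0.131, whereas the other 5 resting samples lay between -0.013 and 0.007, and Runx1 c-k/o 3-h replicate 1 lay at 1.07. Runx1 c-k/o 3-h replicate 2 lay farther from 1, on the other side at 0.883, so the axis does not single out replicate 1. Its member median was among the other 3-h samples. Libraries were also compared by a chi-square per degree of freedom over tested genes without the members. Runx1 c-k/o 3-h replicate 1 differed from replicates 2 and 3 by 60.9 and 85.0, and these from each other by 14.0. Runx1 c-k/o rest replicate 2 differed from replicates 1 and 3 by 37.4 and 30.6, and these from each other by 4.99. Values from the libraries that stood apart are marked below for the main cases and not for every gene. The part of these libraries in calls is given for the main cases, and ranges of 3 samples do not show which library set them. All 10 B cell markers were expressed in all groups, with summed levels between 13131 and 24067 normalized CPM, and 8 T cell markers summed to 34.5 to 95.8. Runx1 itself was at 81.8 to 86.7 normalized CPM in resting Cre-only and 95.7 to 103 in resting Runx1 c-k/o samples, and at 34.9 to 38.5 and 47.3 to 74.5 at 3 h. These counts are summed over all exons, so that transcripts lacking exon 4 are included and the deletion is not checked by them.

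The promoters of 3 genes are shown because, of the 35 genes, Hk2 and Ldha rose most on activation and Slc2a1 differed between the genotypes at 3 h. They are the 250 bases before the start site of RefSeq transcripts on build GRCm38.p6, 5′ to 3′ on the strand of the gene. Capitals mark matches on either strand to ACGTG (the core of the hypoxia response element), CACGTG (the E-box, which contains ACGTG on both strands) and TGTGGT (the RUNX core).
Ldha, chr7:46845554-46845803, plus strand: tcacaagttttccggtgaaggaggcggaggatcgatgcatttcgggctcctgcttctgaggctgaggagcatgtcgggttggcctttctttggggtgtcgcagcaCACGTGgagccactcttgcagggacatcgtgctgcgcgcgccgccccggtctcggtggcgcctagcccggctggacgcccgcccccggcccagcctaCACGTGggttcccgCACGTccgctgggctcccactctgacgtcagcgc
Hk2, chr6:82774455-82774704, minus strand: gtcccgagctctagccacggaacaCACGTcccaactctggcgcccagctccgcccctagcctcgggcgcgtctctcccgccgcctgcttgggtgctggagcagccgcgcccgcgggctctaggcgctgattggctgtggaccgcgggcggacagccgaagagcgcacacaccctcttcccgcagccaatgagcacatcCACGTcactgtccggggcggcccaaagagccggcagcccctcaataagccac
Slc2a1, chr4:119108495-119108744, plus strand: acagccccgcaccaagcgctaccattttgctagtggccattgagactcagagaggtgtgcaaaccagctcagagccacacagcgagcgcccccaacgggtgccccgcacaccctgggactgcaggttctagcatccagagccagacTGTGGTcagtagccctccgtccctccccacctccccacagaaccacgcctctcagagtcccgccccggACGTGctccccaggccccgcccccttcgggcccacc
The Ldha window held 3 such places, 2 of them E-boxes, the Hk2 window held 2 and the Slc2a1 window held 2, of which 1 was the RUNX core. A later Ldha start site in the same table had 0 matches in its window.

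Over windows of 300 bases, which reach 50 bases past the start site, 34 of the 35 genes had at least 1 promoter in the RefSeq table. ACGTG or its reverse complement was found in 22 of the 48 member promoters, against 19.6% of all 32851 promoters. CACGTG was found in 6 of the 48, against 7.15% of all, and TGTGGT in 8 of the 48, against 16.8%. By gene, 10 of the 18 members that rose on activation in both genotypes and 5 of the 9 members with a promoter that fell in both held ACGTG. A gene with several promoters had more chances to hold a match, which describes the letters only and is no evidence of binding.

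Before activation, the most abundant members per kb of exon in Cre-only cells were Gapdh, with 153 normalized CPM per kb, and the aldolase gene Aldoa, with 91.2. Ldha, the muscle-type subunit of lactate dehydrogenase, ranked 5th with 57.8. After 3 h Ldha was the most abundant member in both genotypes, with 355 normalized CPM per kb for Cre-only cells against 438 for Runx1 c-k/o cells, ahead of Gapdh with 203 and 239. The 3 Runx1 c-k/o samples were at 563, 376 and 375, the first of them the library that stood apart. Ldha alone took 5.90% to 6.09% of all member counts at rest in Cre-only samples and 18.4% to 19.5% at 3 h. Copies of at least 90% identity lie elsewhere in the genome for Gapdh, Ldha, Pgam1, Pgk1, Eno1, Aldoa, Gpi1, Tpi1, Ldhb, Pdk3, Pdhb, G6pdx and Taldo1, so that their counts carry some uncertainty. The annotated copies of Gapdh drew 67 to 196 counts per sample, at most 2.30% of the sum of gene and copies, and those of Pgam1 at most 2.35%.

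The comparison of 3-h with resting cells asked how the pathway was transcribed as B cells were activated. In Cre-only cells 31 of the 34 tested members changed, 19 of them higher and 12 lower, by edgeR's quasi-likelihood test with a Benjamini-Hochberg adjusted p under 0.05. Activation moved most genes: 75% of all tested genes were called, 38.6% higher and 36.4% lower. The median log2 fold change was 0.43 over the members and 0.03 over all tested genes, and 9 members were at least 2-fold higher and 8 at least 2-fold lower, against 20.4% and 24.7% of all genes. In Runx1 c-k/o cells 28 members changed, 18 higher and 10 lower, where 74.3% of all genes were called (37.7% higher and 36.6% lower), and the median was 0.41 over the members and 0.00 over all genes. There 9 members were at least 2-fold higher and 7 at least 2-fold lower, against 19.7% and 24.6% of all genes. The 3 samples of one time lay above the 3 of the other for 20 higher and 12 lower members in Cre-only cells, where 43.8% and 40.6% of all genes were so separated, and for 19 and 10 in Runx1 c-k/o cells, where 36.5% and 36.3% were. The members called in both genotypes were 18 higher and 10 lower, 3 were called in Cre-only cells alone (Slc2a1, Pfkfb3 and Taldo1), and 0 were called in opposite directions. Of the calls, 21 of those for Cre-only cells and 18 of those for Runx1 c-k/o cells held in every alternative analysis that tested them, which was 22 for Hk3, left out by the filter of 10 or more counts in every sample, and 23 for the others, and the call of Pfkfb3 was lost under 14 of the 23, of Gpi1 under 8 for Cre-only cells and 6 for Runx1 c-k/o cells and of Gapdh in Cre-only cells under 7. The alternatives include 1 factor of unwanted variation, fitted in edgeR and in DESeq2, which moved with the stimulus itself. Fitting it can take out the change on activation, so a call lost under it here or below does not show that a change was absent. With the replicate number as a block within genotype 27 members were called in Cre-only cells, where Pfkfb3, Gapdh, Gpi1 and Taldo1 lost their calls.

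**Figure D1:**
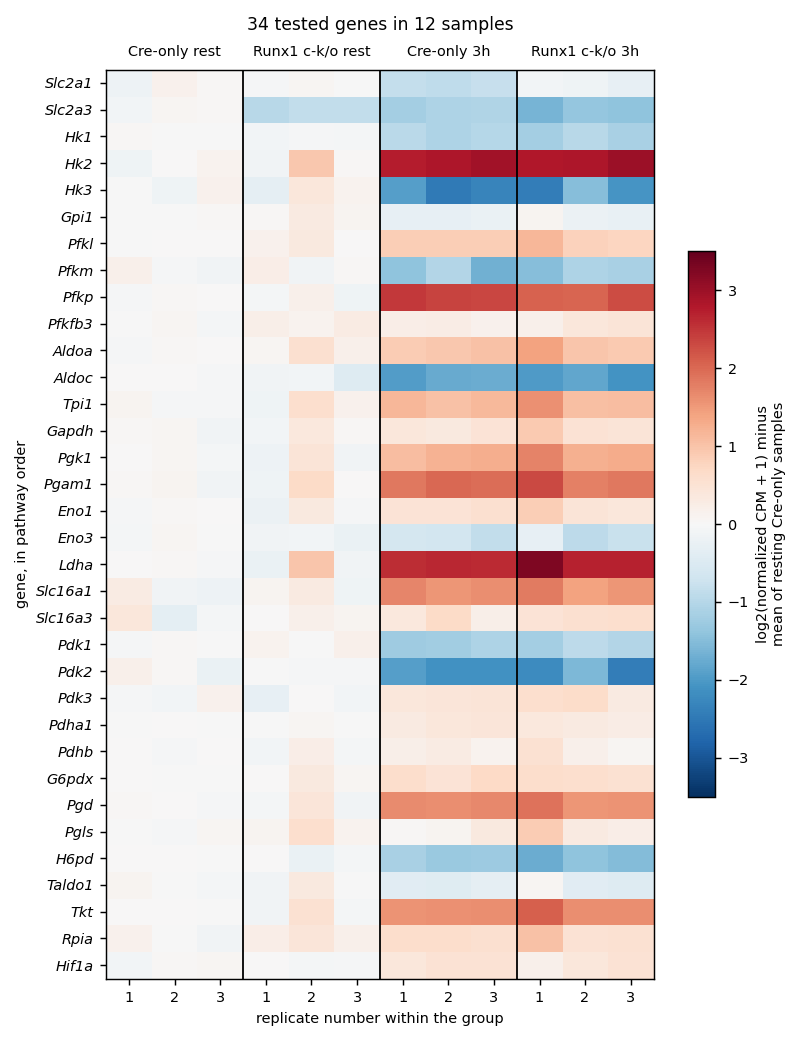
Heat map of the 34 tested genes (rows, in pathway order) in the 12 samples (columns, by group and replicate), coloured by log2(normalized CPM + 1) minus the mean of the 3 resting Cre-only samples, from blue (lower) to red (higher). Hk2, Pfkp and Ldha are red in all 6 samples at 3 h and Aldoc and Pdk2 are blue, and Runx1 c-k/o rest replicate 2 is redder than the other resting samples, with a median of 0.32 on the log2 scale over the members.

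Among the hexokinases, which phosphorylate glucose on entry, Hk2 rose and Hk1 and Hk3 fell. Hk2, on chromosome 6 (build mm9, bases 82675019 to 82724448, minus strand), stood at 15.7, 17.8 and 19.2 normalized CPM in the resting Cre-only samples and at 122, 129.5 and 141 at 3 h. In Runx1 c-k/o cells it stood at 16.1, 34.6 and 17.98 before and at 129, 129.7 and 145 after activation. All 6 samples at 3 h lay far above all 6 resting samples, and the value of 34.6 belongs to the resting replicate that stood apart. The log2 fold change was 2.90 ± 0.23 (SE) in Cre-only cells (adjusted p = 2.9e-07) and 2.55 ± 0.23 in Runx1 c-k/o cells (adjusted p = 8.43e-07), and 2.99 in Runx1 c-k/o cells without both libraries that stood apart. Hk1, the widely expressed hexokinase, was at 64.0 to 66.4 in resting and 30.2 to 33.1 in 3-h Cre-only cells, and at 61.0 to 63.1 and 28.1 to 32.9 in Runx1 c-k/o cells. Its samples at the 2 times did not overlap, and its log2 fold changes were -1.03 and -1.04 (SE 0.08 each).

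Hk3, a hexokinase of myeloid cells, fell most of all members. It was at 7.08, 6.38 and 8.12 normalized CPM in resting and 1.17, 0.457 and 0.637 in 3-h Cre-only samples, and at 5.56, 9.76 and 7.83 against 0.515, 1.90 and 0.942 in Runx1 c-k/o samples. The log2 fold changes were -3.17 ± 0.39 (adjusted p = 1.05e-05) and -2.78 ± 0.38 (adjusted p = 2.64e-05). Macrophage and monocyte markers moved with it. The summed level of 11 such markers, all above 3 counts in at least 1 sample, was 619 to 806 normalized CPM in resting and 36.5 to 48.6 in 3-h Cre-only samples, and 545 to 1182 and 43.0 to 123 in Runx1 c-k/o samples. The highest marker sums at rest and at 3 h came from the same 2 Runx1 c-k/o libraries as the highest Hk3 levels of those groups, rest replicate 2 and 3-h replicate 2. The part of these cells in the fall of Hk3 was not tested.

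The phosphofructokinases, which catalyse the committed step of glycolysis, behaved in the same divided way. Pfkp, the platelet-type subunit (chromosome 13, bases 6579014 to 6648023), was at 72.8, 77.7 and 76.3 normalized CPM in resting and 421, 392 and 387 in 3-h Cre-only samples. In Runx1 c-k/o samples it was at 72.3, 85.5 and 68.6 before and at 318, 314 and 369.9 after activation. The value of 85.5 came from the resting library that stood apart. The times did not overlap in either genotype, and the log2 fold changes were 2.40 ± 0.11 (adjusted p = 1.13e-08) and 2.15 ± 0.10 (adjusted p = 2.25e-08). Pfkl, the liver-type subunit, rose by less, with log2 fold changes of 0.87 and 0.74, the latter not called with 1 factor of unwanted variation in DESeq2 (0.20). Pfkm, the muscle-type subunit, fell from 4.59 to 5.93 to between 0.892 and 2.03 normalized CPM in Cre-only cells and from 4.65 to 6.21 to between 1.16 and 1.90 in Runx1 c-k/o cells, with log2 fold changes of -1.88 and -1.74. Pfkfb3, which makes the fructose 2,6-bisphosphate that activates phosphofructokinase, had log2 fold changes of 0.22 (adjusted p = 0.0433) and 0.13 (adjusted p = 0.20). The exons of Pfkp overlap those of Pitrm1 on the opposite strand, and those of Hk3 overlap Unc5a, so their counts depend on the strand setting of the counting, which is not given in the sources used here. The same holds for Slc16a3 and Csnk1d and for G6pdx and Ikbkg.

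Gpi1, which isomerises glucose 6-phosphate, fell slightly in both genotypes, with log2 fold changes of -0.26 and -0.28. In Runx1 c-k/o cells its samples at the 2 times overlapped, and without rest replicate 2 the value was -0.18 and not called (adjusted p = 0.12). Without both libraries that stood apart it was -0.33 and called by edgeR's quasi-likelihood test (adjusted p = 6.96e-05). Of the aldolases, which split fructose 1,6-bisphosphate, Aldoa rose by 0.95 and 0.82 on the log2 scale, and the call in Runx1 c-k/o cells was lost when 1 factor of unwanted variation was fitted (0.19 with edgeR and 0.12 with DESeq2). Aldoc, the brain-type aldolase, was at 5.58 to 5.86 normalized CPM in resting and 0.734 to 1.02 in 3-h Cre-only cells, and at 3.92 to 5.36 and 0.589 to 0.919 in Runx1 c-k/o cells. It fell by 2.67 and 2.71 on the log2 scale, with no overlap between the times.

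The 4 members of lower glycolysis before enolase all rose in both genotypes, but once 1 factor of unwanted variation was fitted Gapdh turned lower and was not called, at -0.17 for Cre-only cells and -0.08 for Runx1 c-k/o cells with edgeR. Pgam1, the phosphoglycerate mutase, was at 47.2, 49.3 and 42.5 normalized CPM in resting and 169.9, 189 and 181 in 3-h Cre-only samples. Its Runx1 c-k/o samples were at 41.6, 74.7 and 46.9 before and 231, 159 and 169 after activation. The times did not overlap, and the high values of 74.7 and 231 came from the libraries that stood apart. Its log2 fold changes were 1.96 ± 0.20 (adjusted p = 2.43e-06) and 1.77 ± 0.20 (adjusted p = 5.76e-06). Pgk1, the phosphoglycerate kinase that makes ATP, was at 92.2 to 100.5 in resting and 205 to 232 in 3-h Cre-only samples, and at 84.6 to 133 and 229.7 to 325 in Runx1 c-k/o samples. It rose by 1.19 and 1.37 on the log2 scale, and by 1.40 in Runx1 c-k/o cells without both libraries that stood apart. Its times did not overlap. Tpi1, triose phosphate isomerase, rose by 1.13 and 1.04, but with 1 factor of unwanted variation it lost its call in Cre-only cells with DESeq2 (0.28) and in Runx1 c-k/o cells with edgeR (0.26) and DESeq2 (0.19). Gapdh, the dehydrogenase used in many laboratories as a control gene, rose by 0.41 and 0.53. Eno1, the widespread enolase, rose by 0.52 and 0.55, with -0.09 in both genotypes when 1 factor of unwanted variation was fitted in edgeR, and the muscle-type Eno3 fell by 0.73 and 0.52.

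Ldha (chromosome 7, bases 54096845 to 54110997, plus strand) was at 173, 177 and 166 normalized CPM in resting Cre-only samples and at 1038, 1087 and 1048 at 3 h. Runx1 c-k/o samples were at 146, 337 and 158 before and at 1680.3, 1120.2 and 1119.5 after activation. Every 3-h sample lay above every resting sample, and within each Runx1 c-k/o group the highest value belonged to the library that stood apart. The log2 fold changes were 2.62 ± 0.28 in Cre-only cells (adjusted p = 3.73e-06) and 2.61 ± 0.28 in Runx1 c-k/o cells (adjusted p = 4.07e-06). Without both libraries the value in Runx1 c-k/o cells was 2.86. Slc16a1, the lactate and pyruvate transporter MCT1, was at 52.3 to 73.3 normalized CPM in resting and 175 to 195 in 3-h Cre-only samples, and at 53.8 to 74.8 and 159 to 211 in Runx1 c-k/o samples. It rose by 1.62 and 1.51 on the log2 scale, with no overlap. Slc16a3, the transporter MCT4, was near the floor of detection at 0.342 to 1.70 normalized CPM and did not pass the test in either genotype (0.77, adjusted p = 0.0782, and 0.87, adjusted p = 0.0512). It was called higher in 1 alternative for Cre-only cells, at 1.40 without Cre-only rest replicate 1 (adjusted p = 0.00481), and in 4 for Runx1 c-k/o cells.

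The kinases that inhibit pyruvate dehydrogenase parted as the hexokinases did. Pdk1 was at 56.9, 60.1 and 58.3 normalized CPM in resting and 24.0, 24.5 and 27.0 in 3-h Cre-only samples, and at 58.2 to 65.96 and 24.8 to 30.8 in Runx1 c-k/o samples. Its levels at the 2 times were clearly separate, and it fell by 1.22 and 1.16 on the log2 scale. Pdk2 was at 8.24 to 11.2 in resting and 1.47 to 1.81 in 3-h Cre-only samples, and at 9.42 to 9.72 and 1.00 to 2.62 in Runx1 c-k/o samples. It fell by 2.61 and 2.53, again without overlap. Pdk3 rose by 0.45 and 0.68, and with 1 factor of unwanted variation it lost its call in Cre-only cells (0.25 with edgeR and 0.14 with DESeq2) and in Runx1 c-k/o cells in DESeq2 (0.41). Of the 2 subunits of the E1 component of the dehydrogenase itself, Pdha1 rose by 0.38 and 0.30, with calls lost under that factor in Cre-only cells in DESeq2 (0.15) and in Runx1 c-k/o cells in edgeR (0.18) and DESeq2 (0.11). Pdhb had log2 fold changes of 0.21 (adjusted p = 0.141) and 0.24 (adjusted p = 0.0957). With 1 factor of unwanted variation in edgeR they turned to -0.31 in both genotypes and were called lower (adjusted p = 0.00972 and 0.0125). Without both libraries that stood apart Pdhb was called higher by edgeR, at 0.17 in both (adjusted p = 0.0112 and 0.0333). In all it was called in 4 of the 23 alternatives for Cre-only cells and 5 for Runx1 c-k/o cells, not in the same direction.

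In the oxidative branch of the pentose phosphate pathway, which makes NADPH, G6pdx rose by 0.61 and 0.43 on the log2 scale. With 1 factor of unwanted variation its call was lost in Cre-only cells in DESeq2 (0.28) and in Runx1 c-k/o cells in edgeR (0.21) and DESeq2 (0.15). Pgd, the dehydrogenase of 6-phosphogluconate, was at 70.5, 68.4 and 66.3 normalized CPM in resting and 216, 212 and 222 in 3-h Cre-only samples, and at 63.1 to 92.5 and 199.7 to 256 in Runx1 c-k/o samples. It rose by 1.66 ± 0.14 (adjusted p = 4.65e-07) and 1.58 ± 0.14 (adjusted p = 8.15e-07) with no overlap between the times. Without both libraries that stood apart the value in Runx1 c-k/o cells was 1.63. H6pd, the related enzyme of the endoplasmic reticulum, went the other way, from 19.03 to 19.6 to between 7.25 and 8.20 in Cre-only cells and from 16.4 to 19.4 to between 5.09 and 6.69 in Runx1 c-k/o cells. Its log2 fold changes were -1.34 and -1.60. Pgls, the lactonase between these steps, had log2 fold changes of 0.17 and 0.22 that did not pass the test. With 1 factor of unwanted variation in edgeR they turned to -0.61 in both genotypes and were called lower (adjusted p = 0.000616 and 0.000912). The exons of Pgls overlap those of Fam129c on the same strand.

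In the non-oxidative branch, which rearranges sugars and gives ribose 5-phosphate, transketolase (Tkt) was at 212, 214 and 210.0 normalized CPM in resting and 627, 643 and 655 in 3-h Cre-only samples. Without Runx1 Tkt was at 196, 309 and 201 before activation. After activation it was at 899.7, 654 and 655, and 309 and 899.7 came from the libraries that stood apart. Its samples at 3 h all exceeded its resting samples, and it rose by 1.60 ± 0.18 (adjusted p = 4.07e-06) and 1.65 ± 0.18 (adjusted p = 3.48e-06). Rpia, the ribose 5-phosphate isomerase, rose by 0.59 and 0.43, with 0.06 for Cre-only cells and -0.15 for Runx1 c-k/o cells when 1 factor of unwanted variation was fitted in edgeR. Taldo1, transaldolase, fell by 0.38 in Cre-only cells, and its value in Runx1 c-k/o cells was -0.32 (adjusted p = 0.0662). The latter was called lower in 9 of the 23 alternatives, at -0.52 without Runx1 c-k/o 3-h replicate 1 (adjusted p = 0.000708), -0.41 without rest replicate 1 (adjusted p = 0.0370) and -0.39 without both libraries that stood apart (adjusted p = 7.32e-05). Hif1a, the oxygen-regulated factor that drives many of these genes in hypoxia, rose by 0.47 and 0.40.

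**Figure D2:**
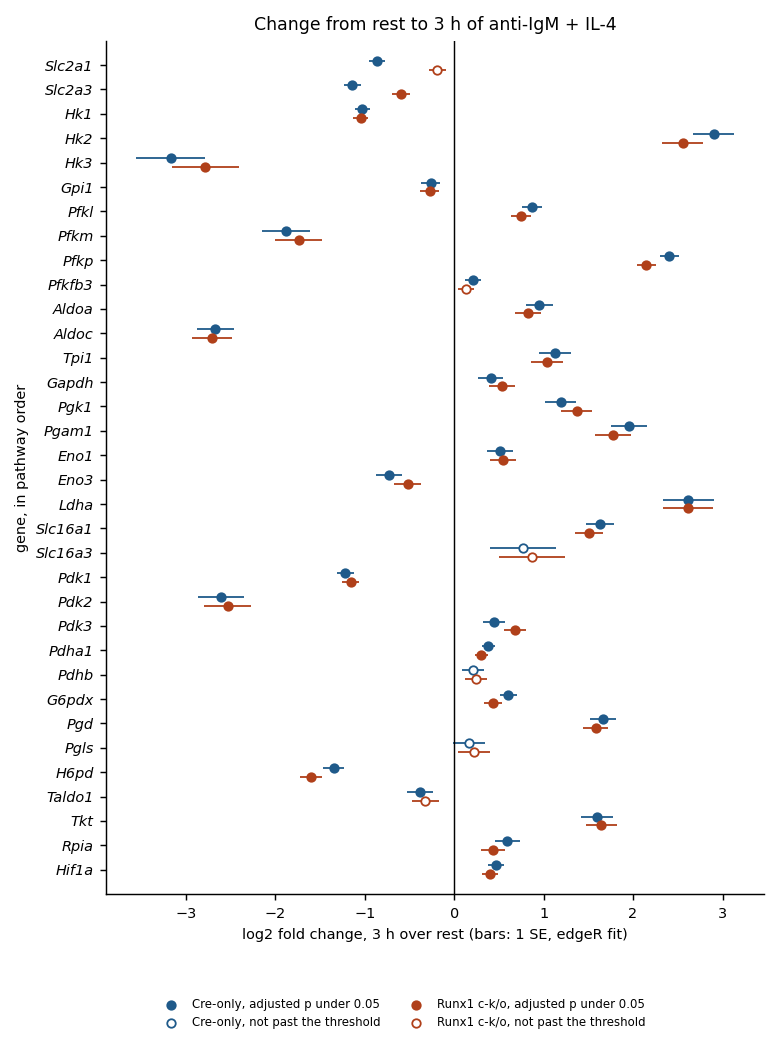
Log2 fold change from rest to 3 h of anti-IgM + IL-4 (x axis) for the 34 tested genes in pathway order (y axis), in Cre-only (blue) and Runx1 c-k/o (red) cells, with bars of 1 SE from the edgeR fit and filled points for adjusted p under 0.05. The 2 genotypes lie close together for most genes, from about 2.90 for Hk2 to -3.17 for Hk3 in Cre-only cells, and lie farthest apart for Slc2a1, at -0.86 and -0.19.

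Across the 34 members the log2 fold changes on activation in the 2 genotypes, which share no samples, had a Pearson r of 0.991 and a Spearman rho of 0.987, and all 34 had the same sign. Across all 13538 genes r was 0.962, and 12720 had the same sign. These are correlations across genes, which are not independent replicates. The median absolute difference between the genotypes was 0.11 on the log2 scale over the members, and the largest, 0.67, was that of Slc2a1.

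Within families the changes added up to a shift between isoforms. Among the 3 hexokinase genes, Hk2 held 23.5% ± 1.91 (SD, n = 3) of normalized CPM per kb in resting Cre-only samples and 84.7% ± 1.47 at 3 h. Its share without Runx1 went from 28.2% ± 7.27 to 85.5% ± 1.93. Hk1 gave up most of this share, from 60.9% to 14.5% in Cre-only cells. Pfkp held 37.3% ± 0.819 of the phosphofructokinase genes at rest and 65.8% ± 1.05 at 3 h in Cre-only cells. For Runx1 c-k/o cells the shares were 34.5% ± 0.933 and 60.7% ± 5.03. Pdk3 held 35.7% ± 3.403 of the 3 pyruvate dehydrogenase kinases at rest and 68.3% ± 0.734 at 3 h in Cre-only cells, since Pdk1 and Pdk2 fell. In each of these families the ranges of the leading isoform's share at rest and at 3 h were separate in both genotypes. Aldoa and Ldha held at least 98.0% and 99.2% of their families in every sample, so the fall of Aldoc moved its family's share little.

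**Figure D3:**
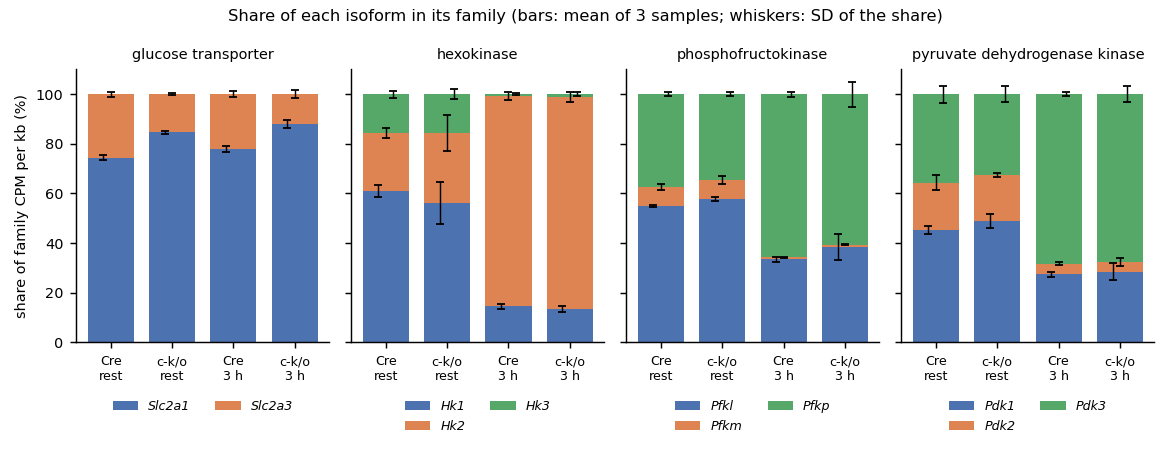
Share of each isoform in its family (y axis, percent of the family's normalized CPM per kb of exon) in the 4 groups (x axis), for glucose transporters, hexokinases, phosphofructokinases and pyruvate dehydrogenase kinases. Stacked bars are means of 3 samples and whiskers, drawn at the top of each segment, are the SD of that segment's share. Hk2 grows from 23.5% to 84.7% of the hexokinases in Cre-only cells, and the Slc2a1 share of the transporter pair at rest is 74.4% with Cre alone and 84.6% without Runx1.

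The comparison of genotypes asked which of these genes depend on Runx1 in B cells. At rest 1 of the 34 members passed the test, Slc2a3, which was lower in Runx1 c-k/o cells, where 1.49% of all tested genes were called (0.731% higher and 0.761% lower). At 3 h 1 member passed, Slc2a1, which was higher, where 2.77% of all genes were called (1.47% higher and 1.3% lower). 1 member of 34 is 2.94%, near the background at both times. The median log2 difference, Runx1 c-k/o over Cre-only, was 0.09 over the members at rest and 0.09 at 3 h, against 0.03 and 0.01 over all genes. Without both libraries that stood apart the member medians were -0.03 and -0.01. At rest 6 members were higher and 4 lower with no overlap of the 3 samples against 3, where 12% and 11.6% of all genes were, and at 3 h 2 were higher and 3 lower, where 9.5% and 12.3% were.

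Slc2a3 encodes GLUT3, a glucose transporter of high affinity (chromosome 6, bases 122677827 to 122751658, minus strand). It was at 59.8, 67.0 and 66.7 normalized CPM in the Cre-only samples at rest, against 32.6, 35.2 and 35.2 in those of Runx1 c-k/o mice. The resting groups were far apart, and the lower group varied little. The log2 difference was -0.91 ± 0.09 (SE, adjusted p = 0.000603 by edgeR's quasi-likelihood test), and it was past the threshold in all 22 alternatives, between -0.96 and -0.87. At 3 h the Cre-only samples were at 27.4, 30.1 and 30.4. The Runx1 c-k/o samples were at 20.2, 24.4 and 23.6, and 20.2 came from the library that stood apart. These groups did not overlap either, but the log2 difference of -0.36 ± 0.10 did not pass the test (adjusted p = 0.0734) and did so in 2 of the 22 alternatives, the DESeq2 Wald test and edgeR with 1 factor of unwanted variation. On activation Slc2a3 fell in both genotypes, by 1.14 on the log2 scale with Cre alone and by 0.59 without Runx1.

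Slc2a1 encodes GLUT1, the glucose transporter found in most cells (chromosome 4, bases 118781316 to 118809935, plus strand). At rest the Cre-only samples were at 65.5, 81.5 and 75.5 normalized CPM and the Runx1 c-k/o samples at 71.9, 78.2 and 73.3, which overlap. After 3 h the Cre-only samples were at 41.3, 39.8 and 41.5 and the Runx1 c-k/o samples at 68.8, 66.5 and 60.9. The 3-h groups were widely separate, with every Runx1 c-k/o sample above every Cre-only sample. The highest Runx1 c-k/o values, 78.2 at rest and 68.8 at 3 h, came from the libraries that stood apart. The log2 difference at 3 h was 0.68 ± 0.09 (adjusted p = 0.00159 by edgeR's quasi-likelihood test), a 1.60-fold higher level, and it was past the threshold in all 22 alternatives, between 0.64 and 0.73. On activation Slc2a1 fell by 0.86 on the log2 scale in Cre-only cells (adjusted p = 3.22e-06), whereas the value in Runx1 c-k/o cells was -0.19 (adjusted p = 0.0807) and was called lower in 8 of the 23 alternatives, 1 of them without Runx1 c-k/o 3-h replicate 1 alone (-0.23, adjusted p = 0.0358). Erythroid markers are given beside this result because red cell precursors express Slc2a1. Their summed level was 12.6 to 137 normalized CPM in 3-h Cre-only and 115 to 203 in 3-h Runx1 c-k/o samples, and 0.980 to 10.7 and 6.56 to 7.54 over the 4 of them that are not globins. At rest, where Slc2a1 was not called, the sum was 37.7 to 256 in Cre-only and 247 to 411 in Runx1 c-k/o samples. Without the globins the resting sums were 4.04 to 21.8 and 16.4 to 27.0. The part of such cells in the level of Slc2a1 was not tested.

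The difference between the genotypes at 3 h minus that at rest was tested as an interaction. By edgeR 0 of the 34 members passed, where 0.0813% of all genes did. An unadjusted p under 0.05 was found for 2 of the 34 members and for 686 of all 13538 genes. The 2 members were Slc2a1, with an interaction of 0.67 ± 0.13 (adjusted p = 0.117), and Slc2a3, with 0.54 ± 0.13 (adjusted p = 0.285). The DESeq2 Wald test called both members, and so did edgeR without both libraries that stood apart, with values of 0.69 and 0.66 and adjusted p = 0.00538 for each. Without Runx1 c-k/o 3-h replicate 1 alone, the interaction of Slc2a3 was 0.66 and passed (adjusted p = 0.0456). Over all 22 alternatives the adjusted p ranged from 5.05e-06 to 0.659 for Slc2a1 and from 0.000649 to 0.782 for Slc2a3. Seen as a share of the transporter pair per kb, Slc2a1 held 74.4% ± 1.02 (SD, n = 3) at rest with Cre alone and 84.6% ± 0.470 without Runx1. At 3 h it held 78.0% ± 1.17 and 87.9% ± 1.52. The ranges of the share did not overlap between genotypes at either time.

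**Figure D4:**
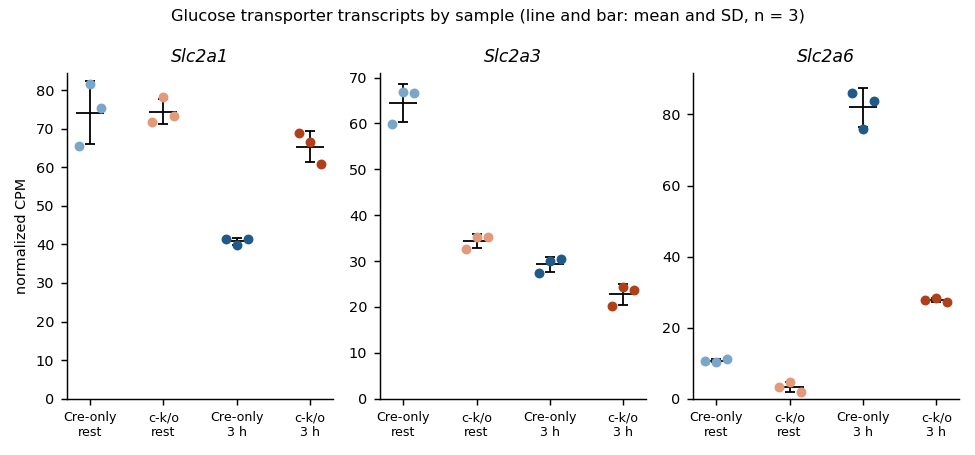
Normalized CPM (y axis, from 0) of Slc2a1, Slc2a3 and Slc2a6 in the 4 groups (x axis). Points are samples, and the line and bar are the mean and SD of 3 samples. At 3 h the Slc2a1 points of Cre-only samples lie at 39.8 to 41.5 and those of Runx1 c-k/o samples at 60.9 to 68.8. Resting Slc2a3 is lower without Runx1, and so is Slc2a6 at both times.

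The other 32 tested members were not called between the genotypes at either time. Their log2 differences lay between -0.25 and 0.39 at rest and between -0.36 and 0.49 at 3 h, with adjusted p of at least 0.383 and 0.178. The upper value at rest was that of Hk2, carried by Runx1 c-k/o rest replicate 2. Without both libraries that stood apart Hk2 was at -0.035, and the ranges were -0.32 (Aldoc) to 0.26 (Pfkfb3) at rest and -0.24 (H6pd) to 0.83 (Hk3, adjusted p = 0.28) at 3 h. The members among these with an unadjusted p under 0.05 in edgeR were Pfkfb3 at rest (0.22, adjusted p = 0.383), and at 3 h H6pd (-0.36, adjusted p = 0.178) and Pfkp (-0.26, adjusted p = 0.23). With the transporters, 2 of the 34 members at rest and 4 at 3 h had such a p, against 1496 and 2194 of all 13538 genes. Pfkfb3 was at 49.95 to 54.2 normalized CPM in resting Cre-only and 57.0 to 63.9 in resting Runx1 c-k/o samples, without overlap. Without both libraries that stood apart it was called higher at rest (0.26, adjusted p = 0.0292) and at 3 h (0.23, adjusted p = 0.0384). With 3 samples a group the SE of these differences ranged up to 0.47 for Hk3, so that small differences were not detectable for the genes of low level.

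**Figure D5:**
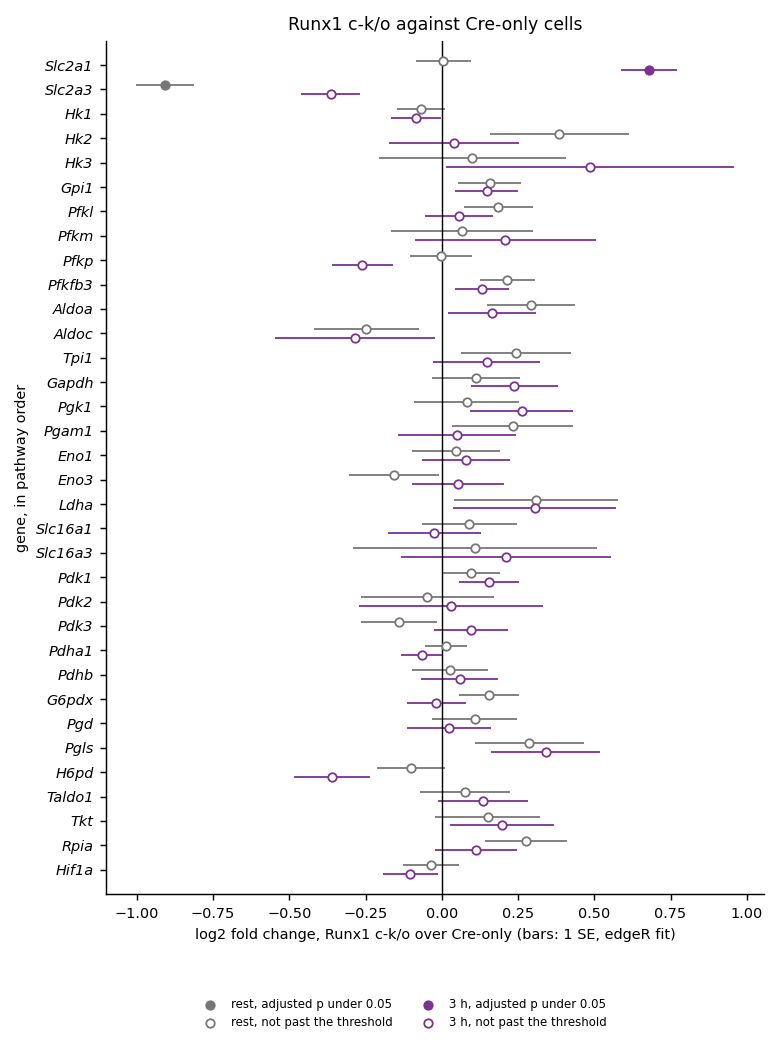
Log2 fold change of Runx1 c-k/o over Cre-only cells (x axis) for the 34 tested genes in pathway order (y axis), at rest (grey) and at 3 h (purple), with bars of 1 SE from the edgeR fit and filled points for adjusted p under 0.05. The filled points are Slc2a3 at rest, at -0.91, and Slc2a1 at 3 h, at 0.68.

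A list apart from the members held 45 further genes of the same pathways, 36 of which were tested. In Cre-only cells 15 of them were higher and 14 lower on activation, and in Runx1 c-k/o cells 18 were higher and 14 lower, where 75% and 74.3% of all tested genes were called. Pkm, the pyruvate kinase of the last step of glycolysis, rose from 318 ± 11.5 to 559 ± 14.2 normalized CPM in Cre-only and from 336 ± 60.8 to 648 ± 102 in Runx1 c-k/o cells (log2 fold changes 0.82 and 0.95). The highest Pkm values of the Runx1 c-k/o groups, 405 at rest and 765 at 3 h, came from the libraries that stood apart. The largest changes in Cre-only cells were those of Eno2, the neuronal enolase (4.35), Slc16a7, the transporter MCT2 (-4.10), Txnip, which restrains glucose uptake (-3.55), the urate and sugar transporter Slc2a9 (-3.54) and Slc2a6 (2.94). Their values in Runx1 c-k/o cells were 3.76, -3.87, -3.56, -3.04 and 3.06. In Cre-only cells Eno2 had 8 to 11 counts per resting sample and Slc16a7 7 to 11 counts per 3-h sample, so these 2 changes rest on low counts. Between the genotypes 1 of the 36 genes was called at each time, where 1.49% of all genes were called at rest and 2.77% at 3 h. It was Slc2a6 both times.

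Slc2a6 encodes GLUT6, a member of the glucose transporter family located in lysosomes. Resting Cre-only samples were at 10.6, 10.2 and 11.3 normalized CPM, against 3.16, 4.78 and 1.99 for Runx1 c-k/o. The value of 4.78 came from the resting library that stood apart. The 3-h values were 86.1, 75.9 and 83.9 for Cre-only and 27.8, 28.2 and 27.2 for Runx1 c-k/o samples. The genotypes were separate at both times, while the rise on activation was shared. The log2 differences between the genotypes were -1.69 ± 0.21 at rest (adjusted p = 0.00152) and -1.56 ± 0.17 at 3 h (adjusted p = 0.000361) by edgeR's quasi-likelihood test, and both were past the threshold in all 22 alternatives.

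Another list held 25 genes of the HIF and MYC axis, which controls much of glycolytic transcription, and 24 were tested. On activation 11 were higher and 7 lower in Cre-only cells, against 9 and 8 without Runx1, and the 18 of 24 called in Cre-only cells equal the 75% of all genes, with 74.3% of all genes called without Runx1. Myc rose from 376 ± 48.9 to 1014 ± 50.2 normalized CPM in Cre-only and from 379 ± 108 to 1259 ± 190 in Runx1 c-k/o cells. The highest Myc values of the Runx1 c-k/o groups, 500.2 at rest and 1475 at 3 h, also came from those libraries. Between the genotypes 0 of the 24 were called at rest by edgeR, where 1.49% of all genes were. An unadjusted p under 0.05 at rest was found for 3 of the 24 and for 1496 of all 13538 genes. At 3 h 2 of the 24 were called lower in Runx1 c-k/o cells, where 1.3% of all genes were called lower. Egln3, an oxygen-sensing hydroxylase that marks HIF proteins for degradation, was at 2.29, 2.42 and 2.87 normalized CPM in 3-h Cre-only and 0.901, 0.525 and 0.766 in 3-h Runx1 c-k/o samples, which did not overlap. Its log2 difference was -1.77 ± 0.27 (adjusted p = 0.00303), on 8 to 53 counts per sample. Bhlhe40, a transcriptional repressor that responds to hypoxia, was at 218, 204 and 193 against 161, 157 and 139, with a log2 difference of -0.43 (adjusted p = 0.0255) that was past the threshold in 12 of 22 alternatives.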

How the data were processed

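From poly(A) RNA with ERCC spike-ins, stranded libraries were sequenced as paired ends. Alignment by the authors was to build mm9 with TopHat2 2.0.11, featureCounts assigned reads to Ensembl genes, and the deposited values are raw counts per gene and sample. The submitters' processing notes also name CASAVA 1.8.4. The strand setting and the handling of reads with several alignments are not given in the sources used here, and the table holds 0 spike-in rows, so absolute amounts of RNA were not analysed here. Positions, exons and lengths are those of GENCODE on mm9, per kb values used the union of exons, and promoters came from RefSeq.

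Genes were kept by filterByExpr of edgeR 4.0.16 (R 4.3.3, minimum of 10 counts), normalized by TMM and fitted with 1 term for each of the 4 groups and robust quasi-likelihood dispersion. Each comparison used edgeR's quasi-likelihood test, and p was adjusted by Benjamini-Hochberg across the 13538 tested genes with 0.05 as the threshold. The SE of a log2 fold change was derived from that test, as its absolute value divided by the square root of the F statistic. An exact permutation test of 3 samples against 3 cannot give a p under 0.1. The models were tested on simulated data. The labels do not say that replicates are separate animals, so p-values measure the spread between these samples. Near-identical copies were located with minimap2 2.31, with at least 90% identity over 150 bases. A floor of 3 counts lay at 0.127 to 0.208 CPM, and it covers counting error only.

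The alternatives were DESeq2 size factors, library size only, no filter, the DESeq2 1.42.0 Wald test, 10 or more counts in every sample, 1 RUVs factor in edgeR and in DESeq2 (computed from its published definition, since the methods name RUV-seq but not the number of factors), a replicate block, only the groups compared, each of the 12 samples left out, and the longest transcript as length. The block within genotype applies to changes on activation. An alternative without both libraries that stood apart was added after seeing the data. Same-numbered resting and 3-h samples of Cre-only mice deviated together (correlations of 0.329, 0.239 and 0.197). Those of Runx1 c-k/o mice did so for replicate 3 (0.378) but not for replicates 1 and 2 (-0.369 and -0.355). No label says what the number marks. Across numbers, Runx1 c-k/o rest replicate 2 and 3-h replicate 1, the libraries that stood apart, deviated together (0.594). Rest replicate 3 with 3-h replicate 2 was at 0.399 and rest replicate 1 with 3-h replicate 3 at 0.368. The other pairs of unlike number ran from -0.547 to 0.157. The members and the lists were chosen with earlier results of these data known. Every member could be named, and values by sample are given for members called between the genotypes and for the 8 higher and 8 lower members with the largest change on activation whose times did not overlap in both genotypes, as single values or as the range of 3 samples. Of the other 2 lists, Pkm, genes called between the genotypes and the 5 largest changes in Cre-only cells were named. Myc was added for background after its values were seen.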

Additional observations from a re-analysis of the deposited data

How the results depend on the processing

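The numbers of members called on activation stayed within 1.5 times the reported ones under all 23 alternatives. With the replicate block the counts of members called were 29 (Cre-only activation), 28 (Runx1 c-k/o activation), 1 (genotype at rest), 1 (genotype at 3 h) and 0 (interaction), and with the block within genotype 27 on activation in either genotype. Same-numbered samples of the 2 genotypes shared only a number, and the within-genotype pairing of Cre-only samples lost the calls of Pfkfb3, Gapdh, Gpi1 and Taldo1. In Runx1 c-k/o cells same-numbered samples deviated together for replicate 3 only, so the block there does not stand for a pairing seen in every replicate.

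Of the counts between the genotypes, that at rest was 2 in place of 1 when 1 factor of unwanted variation was fitted, with either tool. At 3 h it was 2 with the DESeq2 Wald test, 2 with 1 such factor in edgeR and 3 with 1 in DESeq2. The interaction gave 2 in place of 0 with each of these 3 analyses, and 0 to 1 with 1 sample left out, the 1 being Slc2a3 without Runx1 c-k/o 3-h replicate 1. Leaving out both libraries that stood apart gave 2 for each of the 3 counts.

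The member median at 3 h between the genotypes (0.09) was -0.047 with that factor in edgeR and -0.011 in DESeq2, and -0.00725 to 0.15 with samples left out, the lowest without both libraries and -0.00710 without Runx1 c-k/o 3-h replicate 1 alone. The median on activation in Cre-only cells (0.43) was 0.34 with DESeq2 size factors, 0.30 with library size only, 0.37 with no filter, 0.27 with 10 or more counts in every sample, 0.34 with the DESeq2 Wald test, 0.36 with only the groups compared, 0.15 and 0.043 with the factor in edgeR and DESeq2, and 0.38 to 0.45 with samples left out. In Runx1 c-k/o cells (0.41) the same factor gave 0.050 and -0.014. That factor moved with the stimulus itself, at -1.21 to -2.22 in 3-h samples and -0.0781 to -0.0168 in resting samples other than Runx1 c-k/o rest replicate 2, at -0.776. Scaling by library size only moved the median of all genes on activation from 0.03 to -0.10 in Cre-only cells and from 0.00 to -0.11 in Runx1 c-k/o cells.

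The difference of Slc2a1 at rest, 0.01 and not called, changed sign to -0.035 with library size only, -0.015 with 10 or more counts in every sample, -0.025 with the factor in edgeR, -0.032 with it in DESeq2 and -0.016 with only the groups compared, and ran from -0.078 to 0.081 with samples left out. With the longest transcript as length, the share of Slc2a1 at rest was 73.3% with Cre alone and 83.9% without Runx1. Hk2 then held 15.4% and 19.2% at rest and 75.5% and 76.8% at 3 h, and Pfkp 50.8% and 47.7% at rest and 76.7% and 72.5% at 3 h. The causes of these shifts were not tested. Depth limited the genes of lowest level, Slc16a3, Aldoc, Hk3 and Ldhb.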

Other observations

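Cre-only 3-h replicate 2 held 1083 counts of Alb, the albumin gene of liver, whereas no other library had more than 2. This gene was chosen after its values were seen.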
